A study of Mus musculus with 10 samples.

Results

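The SLC25 family of mitochondrial solute carriers was examined in mouse gastrocnemius muscle, comparing samples labelled HLI with samples labelled Sham. Members were all genes of the deposited table whose symbol starts with Slc25a, apart from Slc25a20, with a summed estimated count of at least 50 over the 10 samples. This gave 38 genes of the 21956 listed, and 8 further Slc25a genes stayed below the minimum. Slc25a53 lay just inside it with 54 counts and Slc25a43 just outside with 49. Slc25a31, which encodes a testis form of the ADP/ATP carrier, had 28 counts, and Slc25a41 and Slc25a54 had 0.

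SLC25 proteins sit mostly in the inner mitochondrial membrane, which is otherwise closed to charged metabolites, and each exchanges or imports a particular set of solutes. In skeletal muscle the most used of them bring ADP and phosphate to ATP synthase and return ATP to the cytosol, while others carry the malate-aspartate shuttle, amino acids, nucleotides, cofactors and iron. They are made in the cytosol and inserted into the inner membrane by a dedicated import machinery.

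Paired-end libraries were made from poly(A) RNA of wild-type mice, 5 from Sham and 5 from HLI. The label HLI is not explained and is read here as hindlimb ischaemia. For strain, age and time after the procedure the sources used here give nothing. The labels do not say whether each sample is a different animal. The p-values therefore measure only how far these samples spread, and that spread may be technical.

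Estimated counts summed to between 16556385 and 22136299 per library. Skeletal muscle fibre markers were abundant in every library. The summed level of 13 of them, Acta1 and Ckm included, ran from 143256 to 185856 CPM in Sham and from 61813 to 168449 CPM in HLI. CPM are counts per 1000000 counts of a library after TMM scaling. The libraries did not divide cleanly by group. The embryonic and neonatal myosins Myh3 and Myh8, which mark young fibres, summed to 242 CPM in Sham replicate 1 while the other Sham libraries had sums of 5.57 to 8.73 CPM. They summed to 9.37 CPM in HLI replicate 1 while the other HLI libraries had sums of 171 to 1137 CPM. These 2 libraries went against their groups in this respect, and HLI replicate 3 had the lowest fibre markers. Results are therefore also given without them where that matters.

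Promoter sequences are shown for 2 of the 5 pairs of paralogues looked at, Slc25a4 with Slc25a5 and Slc25a33 with Slc25a36. In each of the 5 pairs the genes had fold changes of opposite sign, so this is not particular to the 2 shown. The sequences are the 250 bases before the annotated start of each gene, from RefSeq on GRCm38.p6, written 5′ to 3′ on the gene's strand. Capitals mark matches, on either strand, to a promoter box known by its letters CCAAT. They also mark the GC box, bound by SP factors and searched for as GGGCGG, and the E-box, bound by MYC and its relatives and searched for as CACGTG. No matches overlapped in these 4 windows.
Slc25a4 (chr8:46211063-46211312, minus strand): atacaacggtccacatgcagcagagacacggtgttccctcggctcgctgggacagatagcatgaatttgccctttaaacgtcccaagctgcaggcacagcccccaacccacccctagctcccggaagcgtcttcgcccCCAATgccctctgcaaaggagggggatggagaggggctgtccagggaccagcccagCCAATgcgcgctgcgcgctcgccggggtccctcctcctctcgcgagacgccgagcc
Slc25a5 (chrX:36795347-36795596, plus strand): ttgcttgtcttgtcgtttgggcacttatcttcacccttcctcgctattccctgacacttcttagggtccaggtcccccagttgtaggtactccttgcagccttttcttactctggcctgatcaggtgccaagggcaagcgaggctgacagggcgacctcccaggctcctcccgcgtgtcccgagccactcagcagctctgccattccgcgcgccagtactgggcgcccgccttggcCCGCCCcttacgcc
Slc25a33 (chr4:149774268-149774517, minus strand): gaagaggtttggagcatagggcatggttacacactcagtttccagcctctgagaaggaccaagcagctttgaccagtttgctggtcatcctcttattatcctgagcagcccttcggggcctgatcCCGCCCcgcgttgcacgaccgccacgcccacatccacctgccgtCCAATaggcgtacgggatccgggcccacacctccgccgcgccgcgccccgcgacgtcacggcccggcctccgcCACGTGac
Slc25a36 (chr9:97111042-97111291, minus strand): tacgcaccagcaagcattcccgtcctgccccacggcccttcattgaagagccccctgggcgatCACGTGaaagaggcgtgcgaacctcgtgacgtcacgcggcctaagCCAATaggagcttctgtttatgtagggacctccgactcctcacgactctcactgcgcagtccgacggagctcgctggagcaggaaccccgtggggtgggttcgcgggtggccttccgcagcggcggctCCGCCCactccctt

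The Slc25a4 window held 2 CCAAT boxes and 0 GC boxes, and the Slc25a5 window 0 CCAAT boxes and 1 GC box. The windows of Slc25a33 and Slc25a36 each held 1 CCAAT box, 1 GC box and 1 E-box. Promoters were found for 29 of the 38 members, with 38 windows because some genes have several starts. An E-box was in 7 of these 38 windows, a GC box in 29 and a CCAAT box in 20, against 6.02%, 32.7% and 33.8% of the 32851 windows of all genes. Counted by gene, 6, 22 and 17 of the 29 had such a window. Windows of the same gene are not independent. The windows of all genes were not limited to expressed genes, as the members were by their counts, so the shares are not like for like. These matches describe the letters in the windows and are not shown to be bound sites.

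The family's transcripts were dominated by a few carriers. Levels of different genes were compared on the deposited TPM, which are relative to gene length. Slc25a4, the muscle and heart form of the ADP/ATP carrier, had 2118 ± 113 TPM in Sham and 1869 ± 240 TPM in HLI (SD, n = 5). It made up 49.0% ± 1.78 of the summed TPM of the 38 members in Sham and 46.7% ± 2.99 in HLI (SD, n = 5). Slc25a3, the phosphate carrier, made up 27.4% ± 1.14 and 26.5% ± 0.827. Together these 2 genes held 76.4% ± 1.40 of the family's TPM in Sham and 73.3% ± 3.10 in HLI, a difference of about the spread between HLI libraries. Slc25a12, Slc25a11 and Slc25a5 followed, and these 5 members were the ones with a mean over the 10 libraries above 100 TPM. Another 25 members lay between 5 and 100 TPM and 8 below 5 TPM.

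In the comparison of HLI with Sham, 37 members passed the filter on low counts and were tested in 1 fit over 13404 genes. Slc25a53, the member that did not pass, stood at between 0.0969 and 0.697 CPM in every library. At an adjusted p under 0.05, 0 members were called (edgeR quasi-likelihood test, Benjamini-Hochberg), against 0% of all genes tested. DESeq2 called 45 genes and limma on log2 TPM 0 genes, of which 0 were members in either case. At an unadjusted p under 0.05 in the edgeR fit, 5 of 37 members were lower in HLI (13.5%, against 6.15% of all genes tested) and 1 was higher (2.70%, against 10.7%). The 5 included Slc25a44, Slc25a33, Slc25a26 and Slc25a12, and the 1 was Slc25a24. By DESeq2, 7 members were lower at an unadjusted p under 0.05, against 8.24% of all genes tested, and 2 were higher, against 11.2%. By limma on unscaled log2(TPM + 1), 1 was lower and 2 were higher, together 8.11% of members against 18.9% of all genes tested. After median-of-ratios scaling of the TPM, 7 were lower and 2 higher, together 24.3% against 16.4%. Leaving out 1 library in turn moved the LFC by over 1.5 times for 24 of the 37 members, and the sign turned for Slc25a14, Slc25a22, Slc25a32 and Slc25a37.

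The members' fold changes lay on both sides of 0, with more below. The log2 fold change (LFC, HLI over Sham) was under 0 for 23 of 37 members (62.2%, against 46.2% of all genes tested), and its median was -0.15 against 0.03 over all genes. On the deposited TPM without further scaling, which moves the median of all genes to 0.19, the members' median was 0.03 and 18 of 37 were below 0, against 24.2% of all genes. Without HLI replicate 3 the median was -0.06 with 24 of 37 below 0, and without replicate 1 of both groups it was -0.16 with 25 below 0. Among the 8 members with the highest mean TPM, 7 had values below 0 and a median of -0.26, the exception being Slc25a5. The other 29 divided into 16 below and 13 above, with a median of -0.13.

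**Figure D1:**
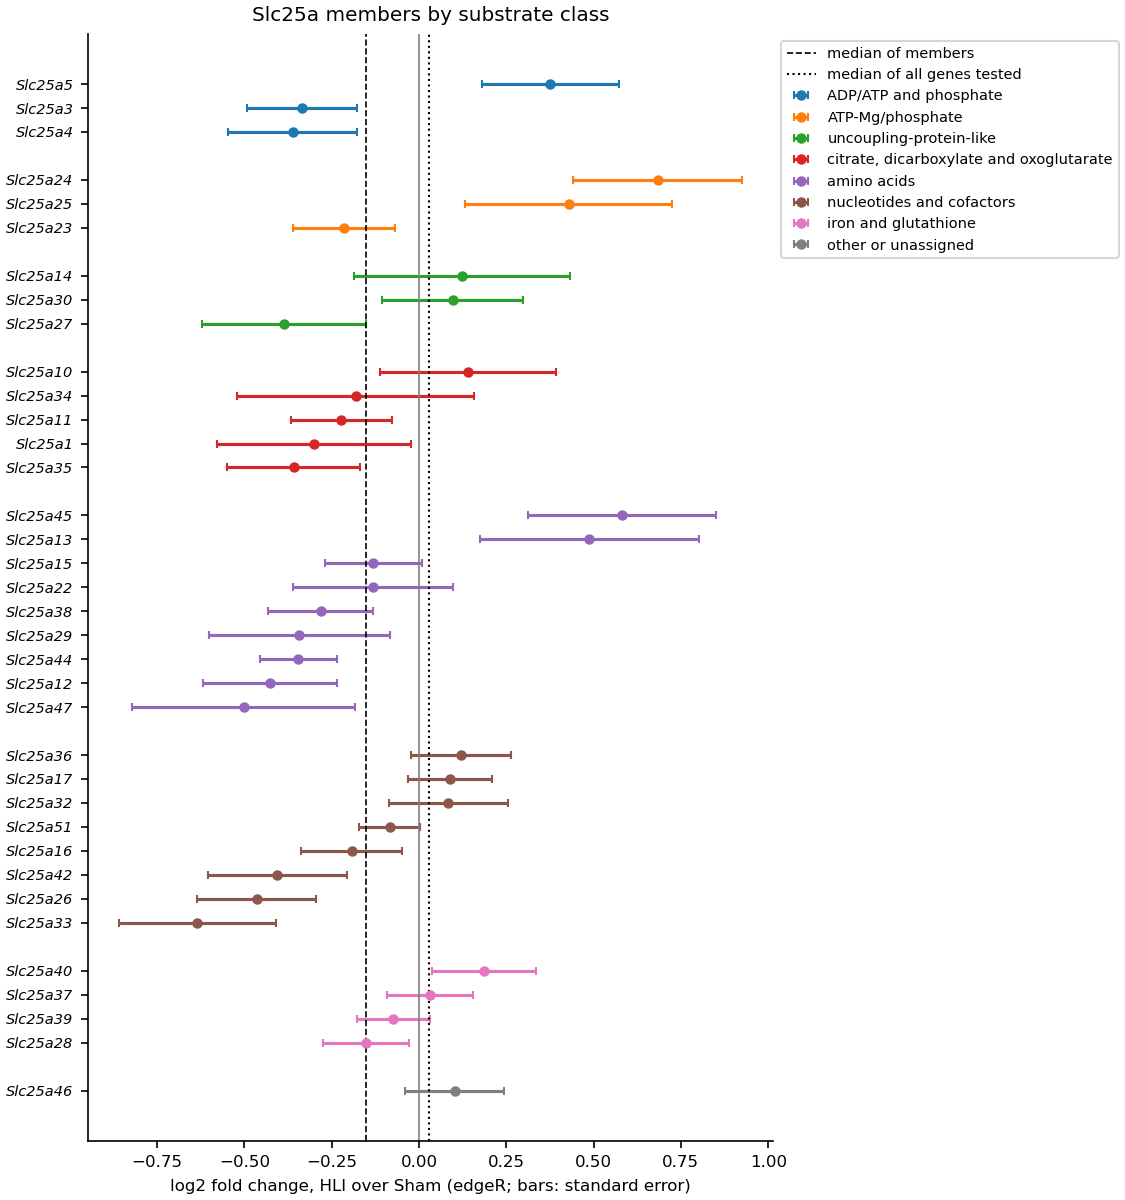
Log2 fold change of HLI over Sham (x axis) for 36 of the 37 tested members, grouped by substrate class, with bars for the edgeR standard error. The dashed line is the members' median of -0.15 and the dotted line the median of all genes tested, 0.03; Slc25a33 lies lowest at -0.63 and Slc25a24 highest at 0.68.

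**Figure D2:**
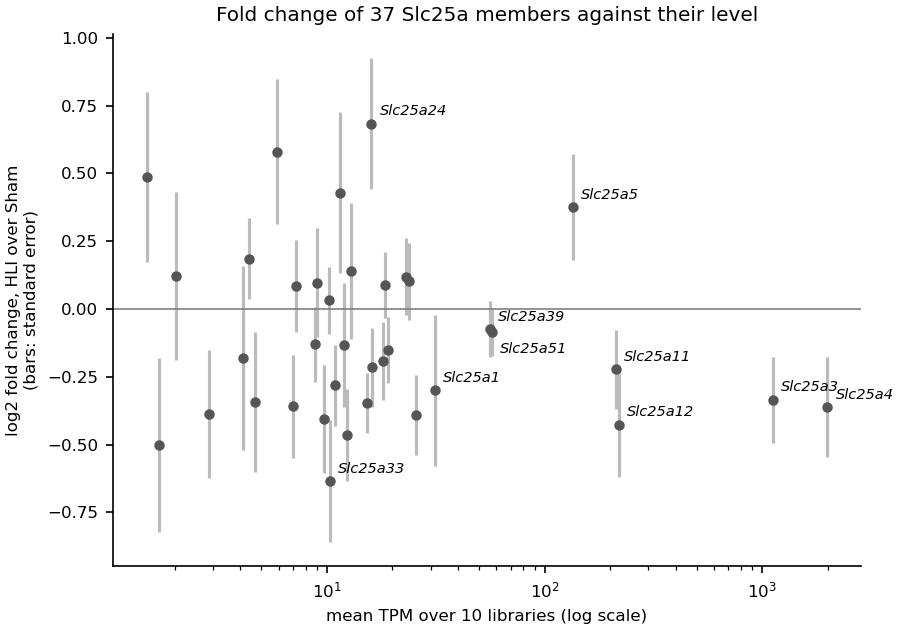
Log2 fold change of HLI over Sham (y axis, bars for the standard error) against the mean TPM over 10 libraries (x axis, log scale) for the 37 tested members. Of the 5 members above 100 TPM, only Slc25a5 lies above 0.

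The ADP/ATP carriers differed in sign between the isoforms. Slc25a4 (ENSMUSG00000031633) stood at 2058, 2412, 2226, 2813 and 2609 CPM in Sham replicates 1 to 5 and at 1693, 2023, 1261, 2523 and 1931 CPM in HLI replicates 1 to 5. In 4 of the 5 HLI libraries it was below the lowest Sham library, whereas HLI replicate 4 lay within the Sham range. Its LFC was -0.36 (SE 0.18, edgeR adjusted p = 0.32), from -0.50 without HLI replicate 4 to -0.25 without HLI replicate 3. Slc25a5 (ENSMUSG00000016319), the ADP/ATP carrier form of dividing and non-muscle cells, stood at 102, 71.0, 82.4, 70.3 and 63.2 CPM in Sham and at 129.9, 89.3, 121, 62.7 and 102 CPM in HLI. In CPM, HLI replicates 1 and 3 were above every Sham library and HLI replicate 4 was below every one. On the deposited TPM, HLI replicates 1, 3 and 5 were above every Sham library. HLI replicate 4, at 83.8 TPM, was inside the Sham range of 81.7 to 151 TPM. The LFC of Slc25a5 was 0.38 (SE 0.20, edgeR adjusted p = 0.32), from 0.27 without HLI replicate 1 to 0.50 without HLI replicate 4. Neither isoform passed the test, and both kept their sign under every alternative run.

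As a share of the 2 isoforms' summed TPM, Slc25a4 made up 95.1% ± 1.47 in Sham and 91.7% ± 3.63 in HLI (SD, n = 5). The share was 89.4%, 93.6%, 87.0%, 96.3% and 92.4% in HLI replicates 1 to 5, against 92.8% to 96.4% in Sham. Libraries of the 2 groups overlapped, since the share in HLI replicates 2 and 4 was inside the range of Sham. The coding sequences of the isoforms are similar, and how reads that fit both were assigned is unknown from the sources used here.

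Slc25a3 (ENSMUSG00000061904), which imports the phosphate used by ATP synthase, stood at 897, 977, 808, 1055 and 1014 CPM in Sham and at 753, 803, 515, 909 and 786 CPM in HLI. As with Slc25a4, in CPM HLI replicate 4 alone lay within the Sham range and the other 4 HLI libraries lay below it. On the deposited TPM only HLI replicate 3, at 879 TPM, lay below the Sham range of 1063 to 1227 TPM. The remaining HLI libraries were inside that range. The LFC was -0.33 (SE 0.16, edgeR adjusted p = 0.30).

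**Figure D3:**
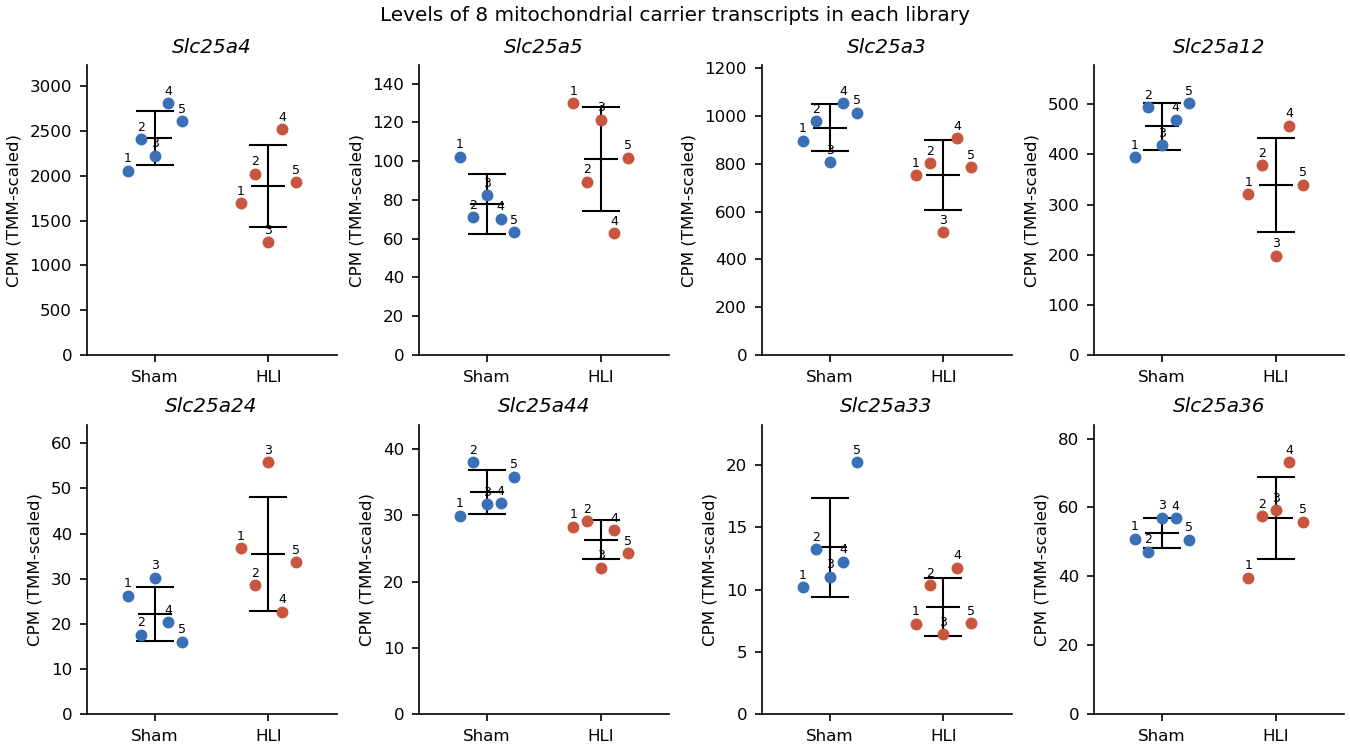
CPM after TMM scaling (y axes, from 0) of 8 members in the 5 Sham and 5 HLI libraries, with replicate numbers beside the points, the mean as a line and the SD as bars. Slc25a4, Slc25a3 and Slc25a12 have 4 of 5 HLI libraries below every Sham library, and Slc25a44 has all 5.

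Markers of fibres, macrophages, proliferation, fibroblasts and erythroid cells varied between the same libraries. HLI replicate 3 had the lowest level of 19 of the 37 tested members and also the lowest summed fibre markers. The share of all genes tested that were lowest in that library was not counted. HLI replicate 4 had 168449 CPM of fibre markers, within the Sham range. The summed level of the 37 members was 2836 CPM in HLI replicate 3, 3717 to 4848 CPM in the remaining HLI libraries and 4292 to 5344 CPM in Sham. All 11 macrophage markers were detected in every library, and they summed to 690.5 to 1708 CPM in Sham and to 3571, 1591, 3350, 877 and 2100 CPM in HLI replicates 1 to 5. The 6 proliferation markers summed to 18.2 to 56.1 CPM in Sham and to 156, 54.9, 220 and 57.8 CPM in HLI replicates 1 to 4 and 78.5 CPM in HLI replicate 5. The fibroblast markers summed to 7724 to 10464 CPM in Sham and to 13839, 11036, 19357, 5184 and 12631 CPM in HLI replicates 1 to 5, so that all HLI libraries but replicate 4 were above Sham. The 7 erythroid markers summed to 527 to 1195 CPM in Sham, to 3086 CPM in HLI replicate 1 and to 575 to 1504 CPM in the remaining HLI libraries. HLI replicates 1 and 3, highest in all of these but the fibre markers, were also the libraries with the most Slc25a5. The part of these other cells in the members' values was not tested, and in bulk tissue fewer cells of a type and less RNA per cell cannot be told apart.

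**Figure D4:**
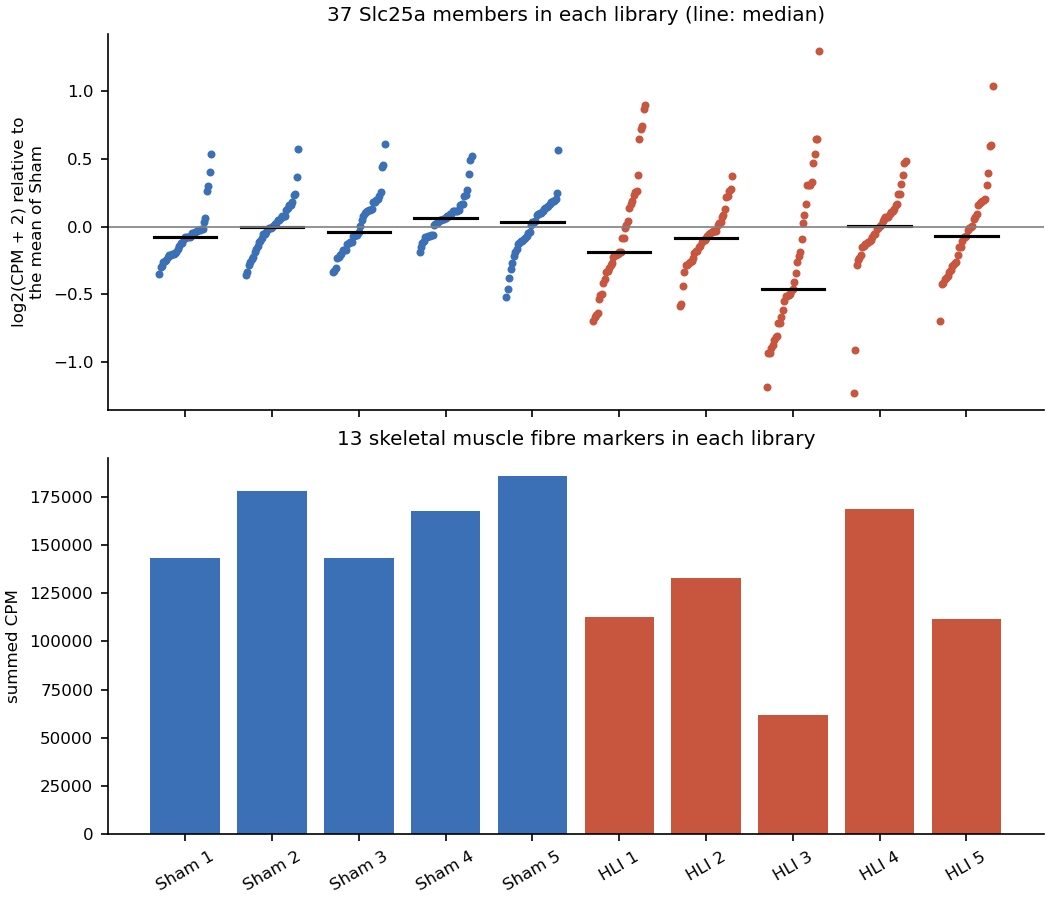
Top, log2(CPM + 2) of each of the 37 tested members relative to its mean in Sham (y axis) in each library, with the median as a line; bottom, summed CPM of 13 skeletal muscle fibre markers. The members' median is lowest in HLI replicate 3, at -0.46, which also has the fewest fibre markers, and is 0.0019 in HLI replicate 4.

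The calcium-regulated ATP-Mg/phosphate carriers, which adjust the adenine nucleotide content of mitochondria, also divided. Slc25a24 (ENSMUSG00000040322) had the highest LFC of all tested members, 0.68 (SE 0.24, edgeR unadjusted p = 0.016, adjusted p = 0.29). It stood at 26.3, 17.6, 30.2, 20.4 and 16.04 CPM in Sham and at 36.8, 28.5, 55.8, 22.7 and 33.6 CPM in HLI. HLI replicates 1, 3 and 5 were above every Sham library, and the fold change was 0.46 without HLI replicate 3. Slc25a25 stood at 31.2 and 34.7 CPM in HLI replicates 1 and 5, above the Sham range of 13.7 to 21.3 CPM, and at 10.8 to 16.6 CPM in the other HLI libraries. Its LFC of 0.43 (SE 0.30, adjusted p = 0.41) was 0.19 without HLI replicate 5. Slc25a23 averaged 21.8 ± 1.33 CPM over Sham and 18.8 ± 4.04 CPM over HLI (SD, n = 5). Per length, Slc25a23 and Slc25a24 stood at 16.7 ± 2.47 and 11.0 ± 3.62 TPM in Sham and at 15.7 ± 2.29 and 21.0 ± 10.4 TPM in HLI, so the order of their means differed between the groups, within a spread that was wide in HLI.

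The carriers of the malate-aspartate shuttle, which moves reducing equivalents from cytosolic NADH into mitochondria, had values below 0 for the abundant forms. Slc25a12 (ENSMUSG00000027010), the aspartate/glutamate carrier of muscle and brain, stood at 394, 494, 418, 469 and 502 CPM in Sham and at 320.5, 379, 198, 457 and 339.7 CPM in HLI. Again 4 HLI libraries lay below the Sham range and HLI replicate 4 within it. Its LFC was -0.43 (SE 0.19, edgeR unadjusted p = 0.046, adjusted p = 0.29), from -0.57 without HLI replicate 4 to -0.28 without HLI replicate 3. Slc25a11, the oxoglutarate/malate carrier of the same shuttle, averaged 215 ± 17.3 CPM over Sham and 184 ± 36.3 CPM over HLI (SD, n = 5), with an LFC of -0.22 (SE 0.14, adjusted p = 0.39) that was -0.12 without HLI replicate 3. Slc25a13, the liver form of the aspartate/glutamate carrier, had an LFC of 0.49 (SE 0.31, adjusted p = 0.38; 0.30 without HLI replicate 1) at a low level of 2.03 ± 0.586 and 2.83 ± 1.10 CPM. Slc25a12 made up 99.5% ± 0.155 of the pair's TPM in Sham and 99.0% ± 0.613 in HLI.

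Among the other amino acid carriers, Slc25a44 (ENSMUSG00000050144), which takes up branched-chain amino acids, was the member with the smallest p. It stood at 29.96, 38.0, 31.7, 31.9 and 35.8 CPM in Sham and at 28.3, 29.1, 22.1, 27.8 and 24.3 CPM in HLI. In CPM the groups did not overlap, all HLI libraries being the lower ones, which held for 1 of 37 members against 0.873% of all genes tested. On the deposited TPM the groups overlapped for Slc25a44. HLI replicates 1, 2 and 3, at 15.9, 15.1 and 14.8 TPM, were inside the Sham range of 13.9 to 18.3 TPM. In CPM, no member had every HLI library above every Sham library (0 of 37, against 0.776%). The LFC of Slc25a44 was -0.35 (SE 0.11, edgeR unadjusted p = 0.0086, adjusted p = 0.29), and without replicate 1 of both groups it was -0.41 (adjusted p = 0.16). Over all alternatives it ran from -0.41 to -0.14. Of the 9 members grouped here as amino acid carriers, Slc25a47 included, 7 had values below 0 and the median was -0.28. Those above 0 were Slc25a13 and Slc25a45, the latter with 5.79 ± 1.98 CPM in Sham and 8.65 ± 2.68 CPM in HLI, an LFC of 0.58 (SE 0.27, adjusted p = 0.30). In Sham replicate 1 Slc25a45 stood at 9.01 CPM, above the other Sham libraries at 4.11 to 6.32 CPM. Slc25a38, which supplies glycine for haem synthesis, and Slc25a15, the ornithine carrier, had LFCs of -0.28 (SE 0.15) and -0.13 (SE 0.14). Slc25a29, a carrier of basic amino acids, Slc25a22, a glutamate carrier, and Slc25a47 had values of -0.34, -0.13 and -0.50 with adjusted p from 0.38 to 0.74.

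Slc25a33 and Slc25a26, both lower at an unadjusted p under 0.05, belong to the nucleotide and cofactor carriers. Slc25a33 (ENSMUSG00000028982), which carries pyrimidine nucleotides, had the lowest LFC of all tested members, -0.63 (SE 0.22, edgeR unadjusted p = 0.015, adjusted p = 0.29). It stood at 10.2, 13.2, 11.0, 12.2 and 20.2 CPM in Sham and at 7.27, 10.3, 6.42, 11.8 and 7.28 CPM in HLI. HLI replicates 1, 3 and 5 lay below every Sham library, and without Sham replicate 5, the highest library, the fold change was -0.45. Slc25a36, the other pyrimidine nucleotide carrier, stood at 51.0, 47.1, 57.1, 56.8 and 50.7 CPM in Sham and at 39.7, 57.5, 59.2, 73.1 and 55.9 CPM in HLI. Its HLI libraries reached both below and above the Sham range, and its LFC of 0.12 (SE 0.14, adjusted p = 0.63) was 0.0028 without HLI replicate 4.

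The balance within this pair divided the libraries more closely than either gene. Slc25a33 made up 36.6% ± 7.41 of the summed TPM of Slc25a33 and Slc25a36 in Sham and 25.7% ± 4.27 in HLI (SD, n = 5). The share was 30.4%, 39.7%, 31.0%, 33.9% and 48.1% in Sham replicates 1 to 5 and 30.1%, 28.6%, 20.02%, 27.4% and 22.6% in HLI replicates 1 to 5. The highest HLI library, replicate 1, and the lowest Sham library, also replicate 1, nearly met. No test was run on the shares, and how often shares of other pairs of genes separate the groups was not counted.

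Slc25a26 (ENSMUSG00000045100), which imports the methyl donor S-adenosylmethionine, stood at 12.5, 18.4, 14.8, 14.02 and 17.4 CPM in Sham and at 13.2, 9.52, 7.88, 13.6 and 11.7 CPM in HLI. HLI replicates 1 and 4 were inside the range of Sham and the LFC was -0.46 (SE 0.17, edgeR unadjusted p = 0.019, adjusted p = 0.29). Slc25a42, the coenzyme A carrier, averaged 19.9 ± 1.98 CPM over Sham and 15.1 ± 4.91 CPM over HLI, with 4 HLI libraries below the Sham range and HLI replicate 4 above it at 22.5 CPM. Its LFC was -0.41 (SE 0.20, adjusted p = 0.31), from -0.61 without HLI replicate 4 to -0.28 without HLI replicate 3.

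Slc25a51, the NAD+ carrier, was the steadiest member between Sham libraries, with a coefficient of variation (SD over mean) of 4.10%, and averaged 87.7 ± 3.60 CPM over Sham and 82.7 ± 5.58 CPM over HLI. Its LFC of -0.08 (SE 0.09, adjusted p = 0.58) was 0.06 on unscaled TPM. Slc25a17, a carrier of the peroxisomal membrane, had 16.9 ± 2.66 and 17.96 ± 1.20 CPM, with an LFC of 0.09 (SE 0.12), which was 0.02 when Sham replicate 3 was left out and 0.18 when Sham replicate 1 was. Slc25a16 had an LFC of -0.19 (SE 0.15), and that of the folate carrier Slc25a32, 0.08 (SE 0.17), was -0.05 without HLI replicate 3. Over all 37 tested members the median coefficient of variation was 15.6% in Sham and 22.2% in HLI, and it was higher in HLI for 29 members. The same count was not taken over all genes tested, so it is not shown to be particular to the family.

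Iron and glutathione carriers had small differences in either direction. Slc25a37 and Slc25a28, the mitoferrins that bring iron to haem and iron-sulphur cluster synthesis, had 21.1 ± 2.60 and 16.6 ± 1.65 CPM in Sham and 21.5 ± 2.62 and 14.9 ± 1.91 CPM in HLI. Their LFCs were 0.03 (SE 0.12, adjusted p = 0.90) and -0.15 (SE 0.12, adjusted p = 0.48). The sign for Slc25a37 was not stable, at -0.04 without HLI replicate 1 and without Sham replicate 2, and that for Slc25a28 turned to 0.05 on unscaled TPM. Slc25a37 made up 33.6% ± 4.68 of the pair's TPM in Sham and 35.96% ± 1.95 in HLI. The glutathione carriers Slc25a39 and Slc25a40 had LFCs of -0.07 (SE 0.11, adjusted p = 0.69; 0.05 on unscaled TPM) and 0.19 (SE 0.15, adjusted p = 0.48). The share of Slc25a39 in that pair was 93.6% ± 0.371 in Sham and 91.9% ± 1.56 in HLI, with HLI replicate 1, at 93.9%, inside the Sham range and the other 4 HLI libraries below it.

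**Figure D5:**
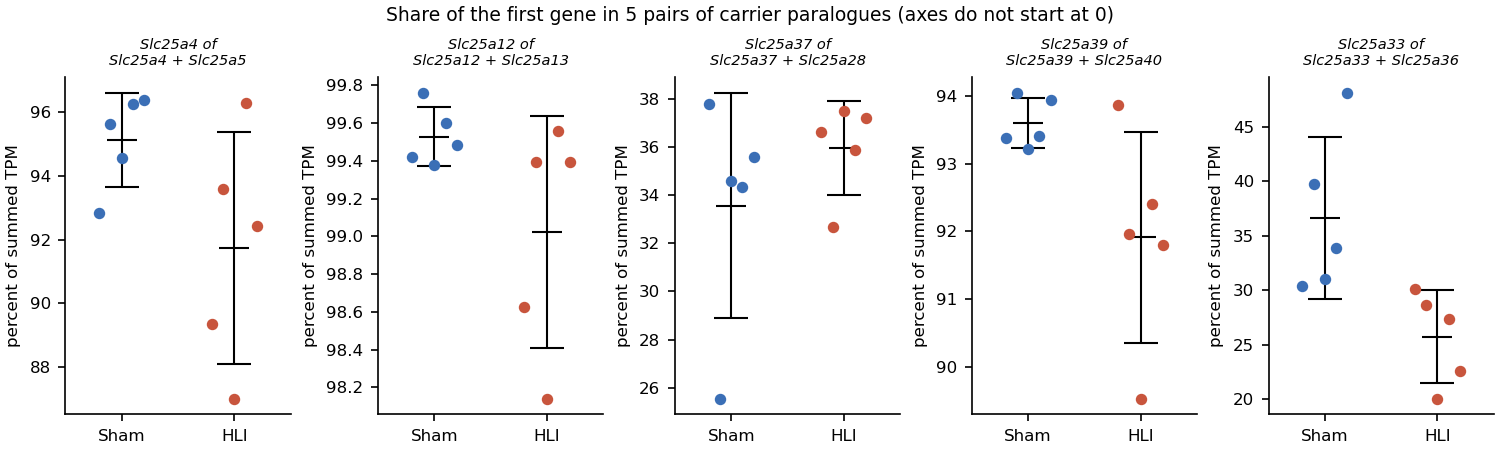
Share of the first named gene in the summed TPM of each of 5 pairs of paralogues (y axes in percent, not from 0) in the Sham and HLI libraries, with the mean as a line and the SD as bars. For Slc25a33 the HLI libraries run from 20.02% to 30.1% and the Sham libraries from 30.4% to 48.1%; the other pairs overlap.

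Of the 5 carriers of citrate, dicarboxylates and oxoglutarate, Slc25a1 and Slc25a10 were lowest in HLI replicate 4. Slc25a1, which exports the citrate used for fatty acid synthesis, stood at 28.2, 45.4, 23.8, 28.2 and 27.6 CPM in Sham and at 35.98, 27.8, 18.1, 11.6 and 31.1 CPM in HLI. Sham replicate 2 was the highest library and HLI replicate 4 the lowest. Its LFC was -0.30 (SE 0.28, adjusted p = 0.53), from -0.47 without HLI replicate 1 to -0.12 without Sham replicate 2. Slc25a10, the dicarboxylate carrier, stood in HLI replicate 4 at 6.09 CPM against 10.9 to 17.8 CPM in the other 9 libraries. Slc25a11 and Slc25a34 stood there at 225 and 9.60 CPM, the highest of the HLI libraries. The 7 adipocyte markers summed to 419 CPM in HLI replicate 4 and to between 583 and 925 CPM elsewhere, and Adipoq stood there at 5.91 CPM against 28.1 to 70.9 CPM. Fabp4, which made up most of that sum, was not lowest there, at 373 CPM against 313 CPM in HLI replicate 1. The 6 fibroblast markers were also lowest in HLI replicate 4, at 5184 CPM against 7724 to 19357 CPM elsewhere. The part of adipocytes and fibroblasts in the level of these carriers was not tested. Slc25a34 and Slc25a35, relatives without a settled substrate, had LFCs of -0.18 (SE 0.34) and -0.36 (SE 0.19, adjusted p = 0.32).

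The carriers related to the uncoupling proteins were low. Slc25a30, Slc25a27 and Slc25a14 had 16.5 ± 5.63, 5.08 ± 0.794 and 1.74 ± 0.748 CPM in Sham and LFCs of 0.10 (SE 0.20), -0.39 (SE 0.24) and 0.12 (SE 0.31), with adjusted p from 0.37 to 0.83. Slc25a46, an outer membrane protein of mitochondrial dynamics, had 54.9 ± 6.68 and 58.9 ± 11.0 CPM, with an LFC of 0.10 (SE 0.14).

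Other genes of mitochondrial transport were read beside the family from a list of relatives, channels and import factors. Of 34 listed genes, 33 were tested and 0 passed (edgeR). At an unadjusted p under 0.05, 2 were higher (6.06%, against 10.7% of all genes tested) and 2 lower (6.06%, against 6.15%), so the counts were at or under the background. Their median LFC was -0.14 and 60.6% were below 0, against 46.2% of all genes tested. Among SLC25 relatives with other symbols, Mtch2, an outer membrane insertase, stood at 132, 143, 133, 158 and 144 CPM in Sham and at 117, 127, 86.4, 132 and 111 CPM in HLI. The HLI values, all lower, did not overlap with Sham, which held for 1 of the 33 tested genes of the list (3.03%, against 0.873% of all genes tested). The LFC of Mtch2 was -0.31 (SE 0.12, adjusted p = 0.29). Ucp2 averaged 65.8 ± 15.9 CPM over Sham and 102 ± 39.4 CPM over HLI, with 157 and 122 CPM in HLI replicates 1 and 3, an LFC of 0.63 (SE 0.26, adjusted p = 0.29). Ucp3, the muscle form, had an LFC of -0.39 (adjusted p = 0.43). Ucp1, the marker of brown fat, had 0 counts in each of the 10 libraries, where 3 counts would be 0.145 to 0.199 CPM, a limit that covers counting error only.

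Both subunits of the pyruvate carrier and all 3 outer membrane channel genes had values below 0. Mpc1 had 403 ± 58.0 and 307 ± 69.4 CPM, with an LFC of -0.40 (SE 0.17, adjusted p = 0.29). Vdac1, the main channel for ADP and ATP across the outer membrane, had 1304 ± 212 and 939.6 ± 295 CPM, with an LFC of -0.47 (SE 0.22, adjusted p = 0.30). As for Slc25a4, HLI replicate 4 lay within the Sham range of Vdac1. The calcium uniporter complex had 4 of 6 genes above 0, with Micu2, a regulatory subunit, at 45.5 ± 4.01 and 56.9 ± 7.42 CPM (LFC 0.32, SE 0.11, adjusted p = 0.29). The 13 genes for the import of carrier proteins had a median of -0.14, with 9 below 0.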

How the data were processed

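RNA-seq of gastrocnemius was analysed in 5 Sham and 5 HLI samples, grouped by their titles. In the 1 table of the authors, each gene and sample has an estimated count and a TPM, per the file headers. Of the deposited estimated counts, which are unnormalized, 93.4% are whole. The deposited TPM sum to 1000000 per sample. Bowtie 0.12.2, HISAT2 2.0 and the build mm8 are listed, without roles, in the submitters' processing notes. The sources used here do not state the counting tool, the annotation or strandedness. For that reason overlapping genes and near-identical copies cannot be told apart. The series text and the sample protocol disagree on the extraction reagent.

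Counts were rounded and tested with edgeR 4.0.16 in R 4.3.3 (TMM, filterByExpr with minima of 10 per count and 15 in total, quasi-likelihood test, Benjamini-Hochberg adjustment over 13404 genes). Standard errors are the log2 fold change divided by the square root of F. Scores by library used log2(CPM + 2). Alternatives were a replicate block, each library left out, replicate 1 of both groups left out, no filter, DESeq2 1.42.0 size factors and test, a robust prior, and limma 3.58.1 on log2(TPM + 1) and log2(TPM + 0.1). The edgeR step was tested on simulated counts. No library was left out of the main comparison.

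The members and lists were chosen with earlier results of these data known. Named members were any called (0), the 8 on each side of 0 with the smallest unadjusted p, the 8 highest in TPM, and listed paralogues and nucleotide carriers; other members were named after their values were seen. For 1 member that the rule names, the values are not reported here. Promoters are from RefSeq on GRCm38.p6, another build than the notes name, and motifs were chosen after the values were seen.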

Additional observations from a re-analysis of the deposited data

Results flagged for a closer look

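Among the 23 named members, with Sham and HLI looked at separately, 1 library stood far from the other 4 of its group by Dixon's criterion at the 95% level. Slc25a1 stood at 45.4 CPM in Sham replicate 2, and the next Sham library at 28.2 CPM. Chance alone flags about 1 in 20 such groups, and 46 were looked at.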

How the results depend on the processing

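The count of called members was 0 under all 19 alternatives, while the count of called genes over the whole table was 0 except for 54 without replicate 1 of both groups and 45 with DESeq2. The members' median log2 fold change was 0.029 on unscaled log2(TPM + 1) and 0.031 on unscaled log2(TPM + 0.1), where the medians of all genes were 0.19 and 0.21, and between -0.22 without HLI replicate 4 and -0.06 without HLI replicate 3 when 1 library was left out. Members at an unadjusted p under 0.05 numbered 6 in edgeR (16.2%, against 16.9% of all genes tested), 15 without HLI replicate 4 (40.5%, against 31.1%) and 4 without Sham replicate 2 or 5 (10.8%, against 8.62% and 8.74%). They numbered 3 in both limma fits on unscaled TPM (8.11%, against 18.9% and 19.1%), 1 lower and 2 higher. With TPM after median-of-ratios scaling they numbered 9 (24.3%, against 16.4%), 7 lower and 2 higher. Signs turned for 4 of the 23 named members. Slc25a37 ranged from -0.041 to 0.070 with 1 library left out, and was -0.046 without replicate 1 of both groups and -0.0032 with TPM after median-of-ratios scaling. On the 2 unscaled TPM fits Slc25a51 was 0.055 and 0.056, Slc25a39 0.052 and 0.052, and Slc25a28 0.046 and 0.048. With the replicate number as a block, 0 genes were called, and the median of the members was -0.16 with 12 at an unadjusted p under 0.05 (32.4%, against 22.3% of all genes tested). The numbers were not taken as pairs: 3 of 5 same-numbered pairs had a correlation of deviations over 0.1, and 0 of 5 HLI libraries correlated best with the Sham library of their number. Members below about 2 CPM, such as Slc25a14 and Slc25a47, rest on few counts.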
